A study of Mus musculus with 13 samples.

Results

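Krt7, Krt8, Krt18 and Krt19, the simple keratins that mark the luminal cells of the mammary epithelium, were followed in mouse mammary organoids from normal tissue and from tumors, grown in Matrigel or in collagen I. They were chosen by name: every measuring probe of the array that carries the symbol or a synonym of one of the 4 genes was taken. These are 6 probes, 2 each for Krt7 and Krt8 and 1 each for Krt18 and Krt19. All 4 genes were among the 18274 genes tested, of 28786 gene names on the array.

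Organoids are fragments of mammary epithelium of many cells each, freed with collagenase and trypsin. The normal ones came from FVB mice. The tumor ones came from MMTV-PyMT mice 12 to 16 weeks old, from the largest tumor of each mouse; in these mice the mammary tumor virus promoter drives the polyoma middle T oncogene in mammary epithelium. All 4 groups received FGF2, a growth factor, at 2.5 nM, and all were collected at day 4. One gel was Matrigel, a basement membrane extract rich in laminin. The other was collagen I from rat tail, at 3 mg/ml, a protein that forms the fibrils of connective tissue. Each group held 3 mice: A, B and D for normal Matrigel, and A, B and C for normal collagen I, tumor Matrigel and tumor collagen I. A letter shared between the gels of one tissue is the same mouse, and letters link nothing between normal and tumor mice. RNA was read on 12 1-colour Agilent arrays of one batch, and 2 arrays of batch 1 measured normal Matrigel A and B as well. The labels state that the same RNA was used in both batches for B, and say nothing of this for A; which B array belongs to batch 2 was inferred from its slide, which it shares with a batch 2 sample.

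Keratins are the intermediate filament proteins of epithelial cells, and each filament pairs a type I (acidic) with a type II (basic) keratin. Krt8 and Krt7 are type II, and Krt18 and Krt19 are type I. Krt8 with Krt18 is the founding pair of simple, one-layered epithelia, while Krt7 and Krt19 are added in ductal and glandular epithelia. In the mammary gland these 4 mark luminal cells, whereas Krt5 and Krt14 mark the basal, myoepithelial layer. The filaments are tied to desmosomes by plakin and plakophilin proteins and carry mechanical load.

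The probes are shown because each value below rests on a single 60-base probe per gene, and because Krt8 and Krt18 belong to one protein family. The second probe of Krt7 and the only probe of Krt19 are given whole, and those of Krt8 and Krt18 up to and with a stop triplet, tga. No annotation of the build was used, so whether that triplet ends the coding sequence was not checked. The first Krt7 probe, whose values enter the fit, is not printed. Capitals mark the longest run of bases shared by probes of different members, 11 bases, which lies in both the Krt8 and the Krt18 probe. Every other pair of probes of different members shared runs of 4 to 7 bases.
Krt7: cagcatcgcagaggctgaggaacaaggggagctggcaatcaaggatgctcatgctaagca
Krt8: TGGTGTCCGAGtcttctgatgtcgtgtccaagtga
Krt18: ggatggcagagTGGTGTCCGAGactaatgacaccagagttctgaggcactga
Krt19: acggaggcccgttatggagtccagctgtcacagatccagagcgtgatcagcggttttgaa
In the mm7 build used by the array files, the Krt7 bases lie at chr15:101409444-101409503 on the plus strand and the Krt8 bases at chr15:101983097-101983131 on the minus strand. The Krt18 bases lie at chr15:102018067-102018118 on the plus strand and the Krt19 bases at chr11:100250117-100250176 on the minus strand. Which exons these bases fall in was not analysed here. In RefSeq's GRCm38.p6 table Krt8 spans chr15:101996711-102004342 and Krt18 chr15:102028216-102032026, so the genes of this filament pair are neighbours, whereas Krt19 lies on chromosome 11.

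The 60 bases before the annotated start of Krt7, Krt8 and Krt18 are given for comparison, from the RefSeq table of GRCm38.p6, because they set the filament partners Krt8 and Krt18, which are neighbours in the genome, beside another keratin gene of the same chromosome. Capitals mark TATAA, searched on both strands.
Krt7: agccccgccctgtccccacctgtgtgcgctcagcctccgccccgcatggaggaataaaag
Krt8: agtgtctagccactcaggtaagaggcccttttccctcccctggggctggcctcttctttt
Krt18: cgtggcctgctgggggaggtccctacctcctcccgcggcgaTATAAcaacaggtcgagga
These windows lie at chr15:101412343-101412402 on the plus strand for Krt7, chr15:102004343-102004402 on the minus strand for Krt8 and chr15:102028156-102028215 on the plus strand for Krt18. The motif was found in 1 of the 3 windows, that of Krt18, and 7.24% of 32851 windows of the same length in the table held it. A match is a description of letters and not a binding site.

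The probes of the 4 genes were among the brightest of the array, so the way arrays are made comparable bears on each value. Unless stated otherwise, a value is the log2 of the processed signal minus that of the array's 75th percentile. Ordered by mean probe brightness, which depends on the probe as well as on the transcript, Krt18 stood 18th and Krt8 31st among the 18274 genes, and Krt19 and Krt7 stood 213th and 221st. No member probe was saturated on any of the 12 arrays, and all were well above background on all 12. The signals of the Krt8, Krt18 and Krt19 probes came from a low-gain scan, scaled up, on all 12 arrays. For the Krt7 probe used in the fit this held on 11 arrays, all but normal Matrigel D, and for its second probe on 2. Whether the scan bears on the differences was not tested. The 75th percentile itself differed between groups: it was 463 ± 96.3 signal units (SD, n = 3) in tumor Matrigel, against 956 ± 247 in normal Matrigel, 1076 ± 126 in normal collagen I and 737 ± 65.4 in tumor collagen I. The distance from the 75th to the 99th percentile was 6.36 ± 0.22 log2 units in tumor Matrigel and 5.63 ± 0.21, 5.61 ± 0.14 and 5.88 ± 0.14 in the other groups in the same order. Of the luminal factor and surface genes 19 of 20 were well above background on all 12 arrays, as were all 4 basal keratins, 8 of 10 fibroblast, 7 of 11 leukocyte and 5 of 10 endothelial genes.

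**Figure D1:**
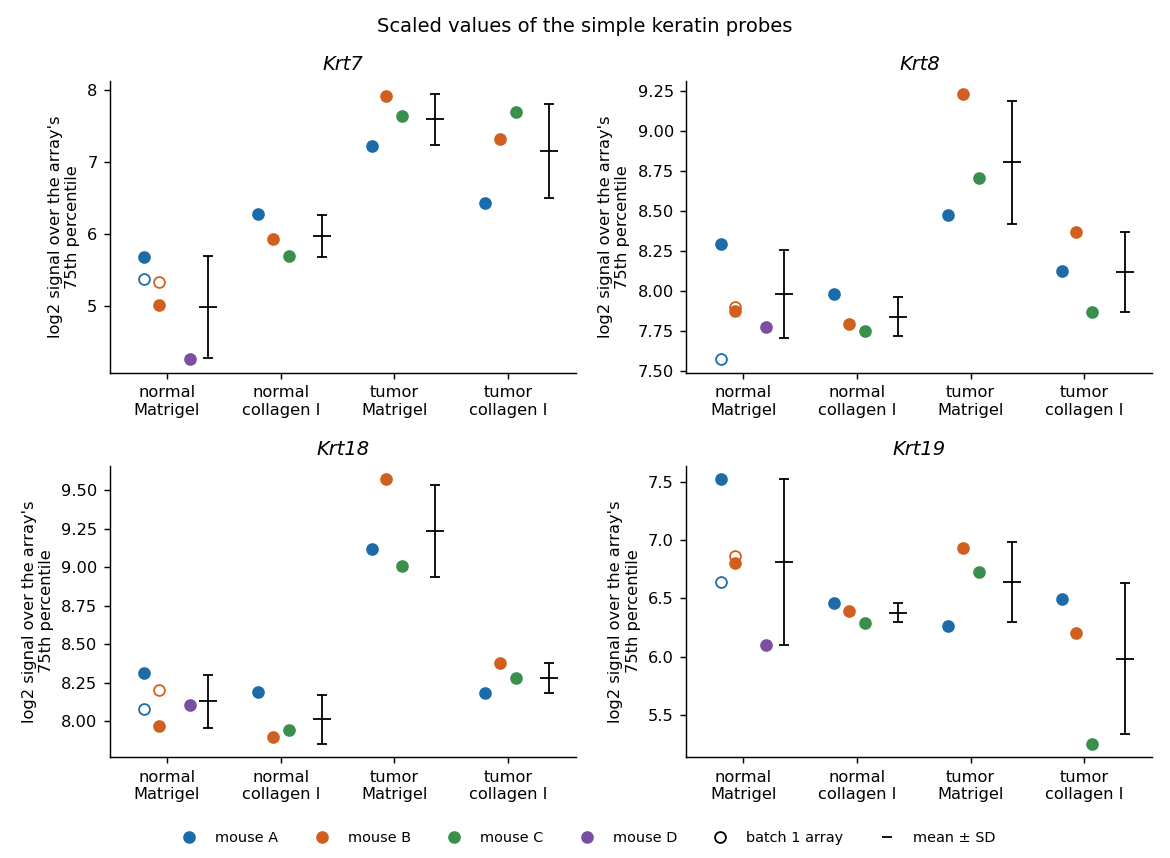
Scaled log2 values of the 4 genes on each array (y axis, log2 signal over the array's 75th percentile) by group (x axis); filled points are arrays coloured by mouse, open points the 2 arrays of batch 1, and bars the mean ± SD of 3 arrays. The 3 tumor Matrigel arrays lie above all others for Krt8 and Krt18, all tumor arrays lie above all normal arrays for Krt7, and the groups of Krt19 overlap.

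Krt7 was higher in tumor than in normal Matrigel organoids, and this difference passed the test under all 8 scalings. In normal Matrigel organoids its scaled values were 5.67 (mouse A), 5.02 (B) and 4.26 (D), and in normal collagen I they were 6.28 (A), 5.93 (B) and 5.70 (C). In tumor Matrigel they were 7.22 (A), 7.91 (B) and 7.63 (C), and in tumor collagen I 6.43 (A), 7.31 (B) and 7.69 (C). Every tumor array was above every normal array, and the normal collagen I arrays were above the normal Matrigel arrays. The tumor minus normal difference in Matrigel was 2.60 ± 0.40 on the log2 scale (SE, n = 3 against 3; limma adjusted p = 0.000553), which is 6.08-fold. In collagen I it was 1.18 ± 0.40 (limma adjusted p = 0.0982), which missed the threshold of 0.05, and without tumor collagen I mouse A it was 1.54 (limma adjusted p = 0.0339). The second Krt7 probe gave 2.85 ± 0.41 and 1.31 ± 0.41 for these comparisons. In order of level the groups ran normal Matrigel, normal collagen I, tumor collagen I, tumor Matrigel, and no neighbouring pair passed the test: the collagen I minus Matrigel differences of Krt7 were 0.98 ± 0.40 in normal (limma adjusted p = 0.491) and -0.44 ± 0.40 in tumor organoids (limma adjusted p = 0.429). The normal difference of Krt7 passed with array weights alone (1.02, limma adjusted p = 0.0439), a setting that called 6.49% of all genes there against 0.0438% without weights, and the tumor difference turned positive with quantile normalization (0.29).

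Krt8 and Krt18, the partners of one filament, were both higher in tumor Matrigel than in the groups compared with it on the 75th percentile scale, but not under all scalings. The Krt8 values were 8.30 (A), 7.88 (B) and 7.78 (D) in normal Matrigel and 7.98 (A), 7.79 (B) and 7.75 (C) in normal collagen I. In tumor Matrigel Krt8 read 8.48 (A), 9.23 (B) and 8.71 (C), and in tumor collagen I 8.13 (A), 8.37 (B) and 7.87 (C). The tumor Matrigel arrays were above all others for Krt8, and the other 3 groups overlapped. The Krt18 values were 8.31 (A), 7.97 (B) and 8.10 (D) in normal Matrigel and 8.19 (A), 7.90 (B) and 7.94 (C) in normal collagen I. In tumor Matrigel Krt18 read 9.12 (A), 9.57 (B) and 9.01 (C), and in tumor collagen I 8.18 (A), 8.38 (B) and 8.28 (C). Tumor Matrigel again stood above the other groups, which overlapped. On this scale Krt8 was higher in tumor than in normal Matrigel organoids by 0.82 ± 0.23 (limma adjusted p = 0.0127), which is 1.77-fold, and Krt18 by 1.104 ± 0.19 (limma adjusted p = 0.000975), which is 2.15-fold. In tumor organoids Krt18 was lower in collagen I than in Matrigel, by -0.95 ± 0.19 (limma adjusted p = 0.00596), and Krt8 by -0.68 ± 0.23 (limma adjusted p = 0.0487). The second Krt8 probe gave 0.62 ± 0.21 (limma adjusted p = 0.0306) and -0.50 ± 0.21 (limma adjusted p = 0.101), so the gel difference of Krt8 did not pass on it. The batch 1 array of normal Matrigel A read 7.58 for Krt8, a gap of -0.72 to batch 2, and that of B read 7.90; whether both A arrays hold the same RNA is not stated. Without normal Matrigel D the Krt8 tissue difference was 0.72 (limma adjusted p = 0.0527). With the mouse as a fixed block the Krt8 gel difference also missed the threshold (limma adjusted p = 0.0552), and as a random block it passed (limma adjusted p = 0.0230); that of Krt18 passed with both.

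Both Krt8 and Krt18 differences changed with the scaling, and so did those of other bright genes. Before scaling, the processed signal of Krt8 ranged from 161581 to 269900 over the 12 arrays and that of Krt18 from 213348 to 316613, with all 4 groups overlapping for Krt8. The mean Krt18 signal was 263724 in normal Matrigel and 277618 in tumor Matrigel, against SDs of 45627 and 47774. The 183 brightest genes, 1% of those tested, a share chosen after the values were seen, had a median tumor minus normal difference in Matrigel of 0.97, and 155 of them were called higher; the differences of Krt8 and Krt18 lie on either side of that median. Between the gels in tumor organoids their median was -0.77 and 126 were called lower. With quantile normalization, which gives every array the same distribution, the tumor minus normal difference in Matrigel was -0.22 for Krt8 and 0.02 for Krt18, and the gel difference in tumor organoids was 0.13 and -0.11; none of these passed. In the authors' deposited values, tested with the same limma fit, these were -0.03, 0.16, 0.06 and -0.16, and none passed. Spike-in probes read RNA meant to be added to each sample in a known amount. Scaled on these probes, Krt8 was lower in tumor than in normal Matrigel organoids by -0.82 (limma adjusted p = 0.0111). Krt18 then read -0.54 (limma adjusted p = 0.0666). The median of all genes on that scale was -1.56, below both values. The spike-in level differed between batches for normal Matrigel B, stated to be the same RNA in both. It was 0.79 log2 units over the array's 75th percentile in batch 1 and -1.995 in batch 2. Whether the spike-in amount was equal across the 12 arrays of the fit was not tested. The direction of the Krt8 difference, and whether Krt18 differs, thus cannot be given without a choice of scaling.

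**Figure D2:**
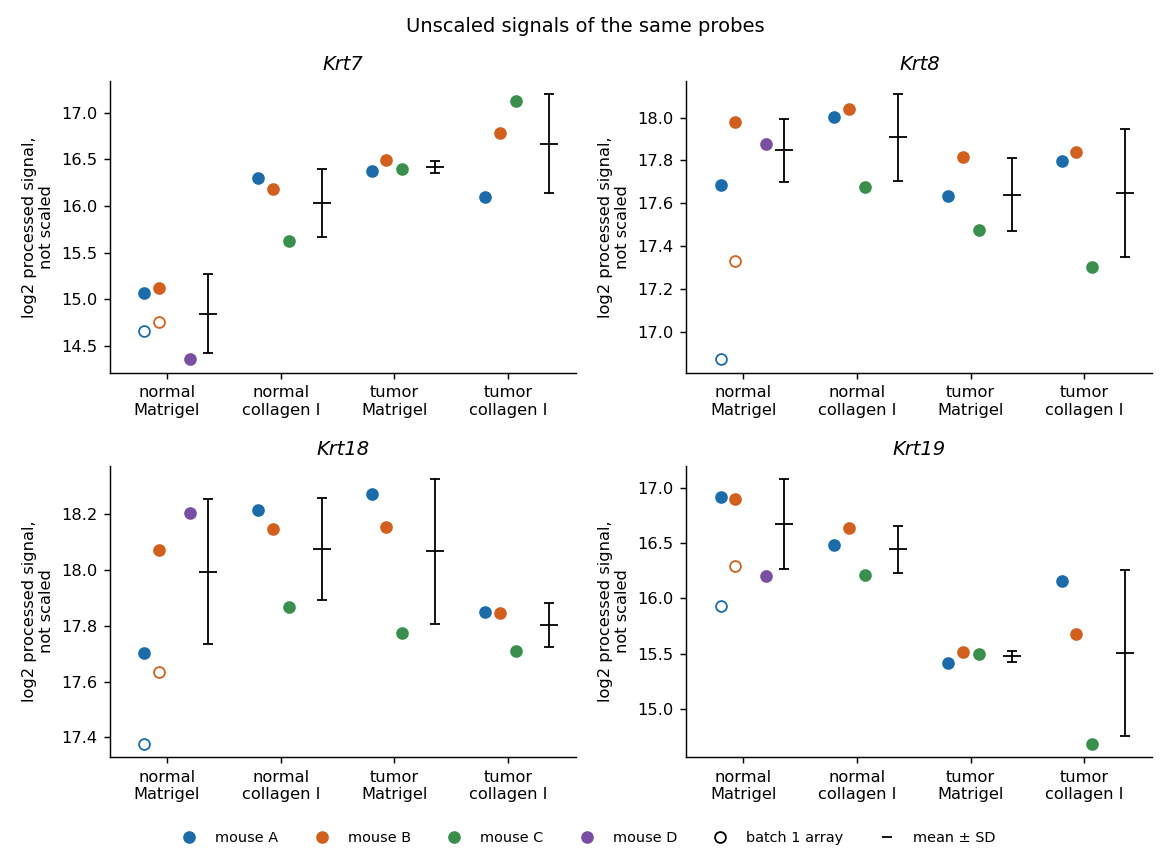
Log2 processed signal before any scaling (y axis) by group (x axis) for the same probes; filled points are arrays coloured by mouse, open points the 2 arrays of batch 1, and bars the mean ± SD of 3 arrays. The groups of Krt8 overlap, Krt7 is lowest in normal Matrigel, and the 3 tumor Matrigel arrays of Krt19 lie below all normal arrays.

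No difference of Krt19 passed the test on the 75th percentile scale. Its values were 7.52 (A), 6.80 (B) and 6.10 (D) in normal Matrigel and 6.46 (A), 6.39 (B) and 6.29 (C) in normal collagen I. In tumor Matrigel Krt19 read 6.26 (A), 6.93 (B) and 6.73 (C), and in tumor collagen I 6.49 (A), 6.20 (B) and 5.25 (C). All 4 groups overlapped, with normal Matrigel A highest and tumor collagen I C lowest. The tumor minus normal difference of Krt19 was -0.17 ± 0.38 in Matrigel (limma adjusted p = 0.732) and -0.40 ± 0.38 in collagen I (limma adjusted p = 0.589). The gel difference of Krt19 was -0.43 ± 0.38 in normal (limma adjusted p = 0.834) and -0.66 ± 0.38 in tumor organoids (limma adjusted p = 0.223). Under quantile normalization Krt19 was lower in tumor than in normal Matrigel organoids, by -0.99 (limma adjusted p = 0.0314), and in the authors' values by -1.03 (limma adjusted p = 0.0220). With normexp background and quantile normalization the difference was -0.89 (limma adjusted p = 0.0319) and with the spike-in probes -1.81 (limma adjusted p = 0.000266). With spike-in scaling the median of all genes was itself -1.56, and 80.9% of all genes were called. Scaled at the median the Krt19 difference was 0.27, so the direction flips there. The batch 1 array of normal Matrigel A read 6.64 for Krt19 against 7.52 in batch 2, a gap of -0.88, and that of B 6.86 against 6.80.

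**Figure D3:**
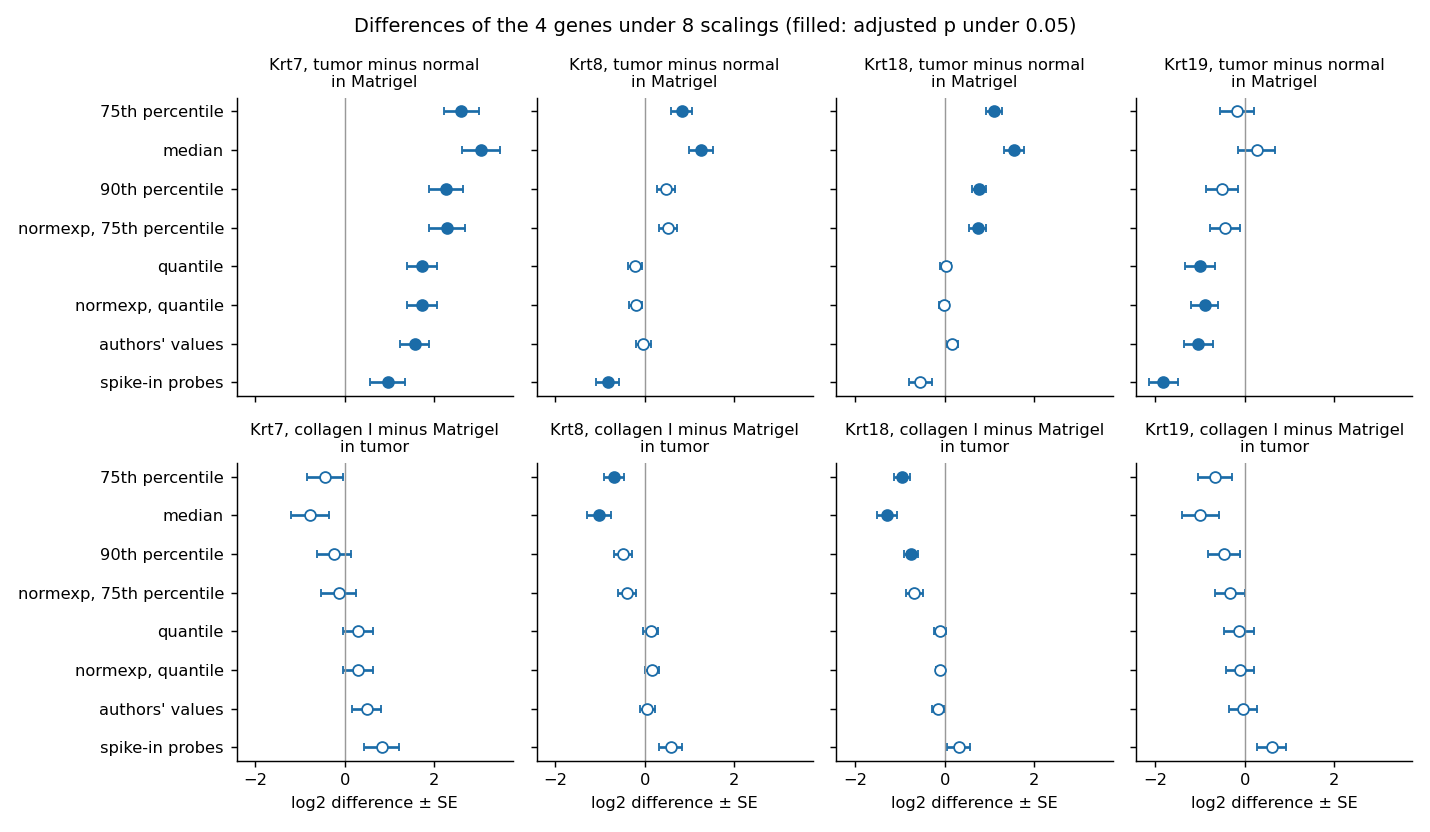
Log2 differences ± SE (x axis) of the 4 genes under 8 ways of scaling the arrays (y axis), tumor minus normal in Matrigel above and collagen I minus Matrigel in tumor organoids below; filled points have a limma adjusted p under 0.05. Krt7 stays between 0.96 and 3.05 in the upper row and is filled throughout, while Krt8 runs from -0.82 to 1.27.

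The rank of a probe among all probes of its own array, a measure added after the values were seen, needs no scaling factor. The percentile rank of Krt7 ran from 97.50 to 98.85 in normal Matrigel and from 99.16 to 99.36 in normal collagen I, against 99.48 to 99.66 in tumor Matrigel and 99.44 to 99.82 in tumor collagen I. All 6 tumor arrays ranked Krt7 above all 6 normal arrays. The rank of Krt19 ran from 99.42 to 99.77 in normal Matrigel and from 98.97 to 99.33 in tumor Matrigel, and these did not overlap. For Krt8 the ranges were 99.92 to 99.94 in normal and 99.85 to 99.92 in tumor Matrigel, and for Krt18 99.94 to 99.96 in both, so they overlapped. Ranks thus did not overlap between tissues in Matrigel for 2 of 4 members (Krt7 higher in tumor, Krt19 lower), against 56.4% of all genes. In collagen I they did not for 3 of 4 (Krt7 higher in tumor, Krt18 and Krt19 lower), against 35.3%. The Krt18 ranks in collagen I were 99.9514 to 99.9684 in normal and 99.9296 to 99.9466 in tumor organoids, while its scaled difference there was 0.27. Between the gels they did not overlap for 1 of 4 in normal organoids (Krt7), against 24.1%, and for 0 of 4 in tumor organoids, against 36.2%.

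Differences between members within an array do not depend on an array's scaling factor either, and they were set against Krt8. The difference of Krt7 minus Krt8 shifted upward from normal to tumor by 1.78 in Matrigel and by 0.90 in collagen I, and from Matrigel to collagen I in normal organoids by 1.13, with no overlap between the groups in each. The difference of Krt19 minus Krt8 shifted by -0.99 from normal to tumor in Matrigel and by -0.68 in collagen I, also with no overlap. Krt18 minus Krt8 overlapped in all 4 comparisons, with shifts between -0.27 and 0.28. In all, 5 of 12 shifts had no overlap, each with an exact two-sided permutation p of 0.1, the smallest that 3 against 3 allows, and 0.24 after Benjamini-Hochberg adjustment over the 12 tests. None of them therefore passed. The same number had no overlap under quantile normalization, normexp background and the authors' values. Over the other genes tested, the difference to Krt8 had no overlap for 54% between tissues in Matrigel (here 2 of 3 members) and 37.1% in collagen I (2 of 3). Between the gels it had none for 21.3% in normal (1 of 3) and 44.8% in tumor organoids (0 of 3).

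**Figure D4:**
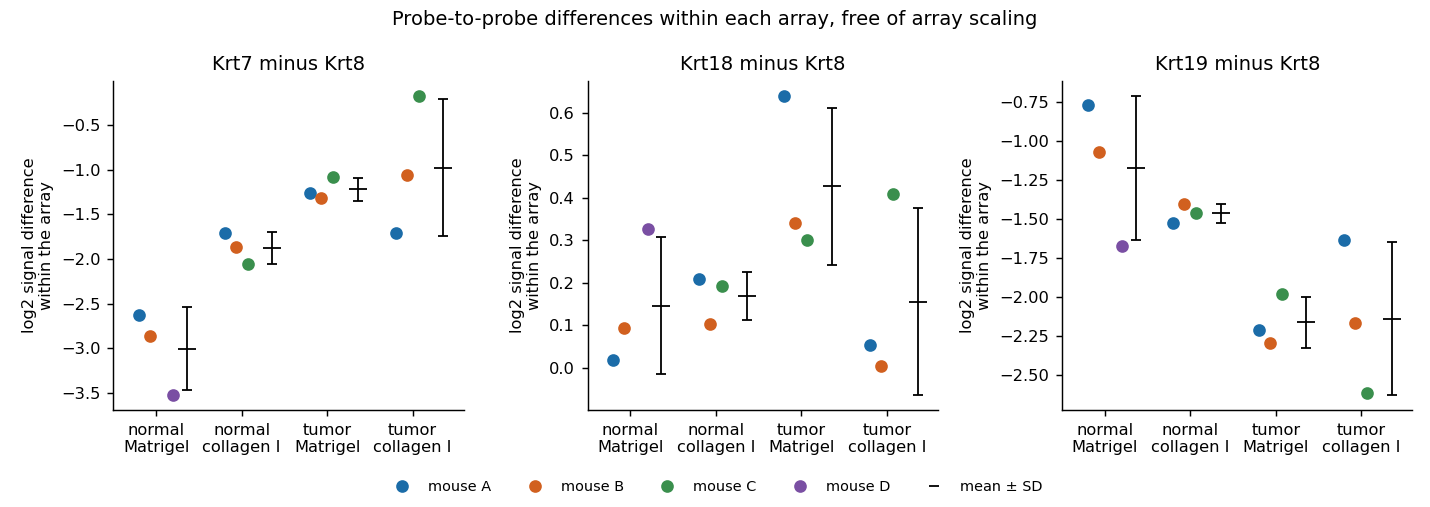
Log2 signal of Krt7, Krt18 and Krt19 minus that of Krt8 on the same array (y axis) by group (x axis); points are arrays coloured by mouse and bars the mean ± SD of 3 arrays. A height compares 2 probes and not 2 transcript amounts, so only the shifts between groups carry meaning: the Krt7 difference rises from a mean of -3.00 in normal Matrigel to -1.22 in tumor Matrigel, and the Krt19 difference drops from -1.17 to -2.17.

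Counted over the comparisons on the 75th percentile scale, 3 of 4 members (Krt7, Krt8 and Krt18) were called higher in tumor than in normal Matrigel organoids, where 51.6% of all genes were called and 25.7% called higher. In tumor organoids 2 of 4 (Krt8 and Krt18) were called lower in collagen I, where 27.8% of all genes were called and 12.1% called lower. The median difference of the members was 0.96 between tissues in Matrigel and -0.67 between gels in tumor organoids, beside 0.08 and -0.04 over all genes. Between the gels in normal organoids 0 of 4 were called, where 8 genes or 0.0438% were, and 1658 genes had an unadjusted p under 0.05. Between the tissues in collagen I 0 of 4 were called, where 8.64% were. Scaled values did not overlap between tissues in Matrigel for 3 of 4 members, against 57.6% of all genes, and in collagen I for 1 of 4 (Krt7), against 33.1%. Between the gels they did not overlap for 1 of 4 in normal (Krt7), against 21.6%, and for 2 of 4 in tumor organoids (Krt8 and Krt18), against 38.4%. Tested with other values, 2 of 4 members (Krt7 higher, Krt19 lower) were called between the tissues in Matrigel, both with quantile normalization, where 48.8% of all genes were called, and in the authors' values, where 48% were. Normexp with quantile normalization called the same 2, beside 47% of all genes, and spike-in scaling called 3 (Krt7 higher, Krt8 and Krt19 lower), beside 80.9%.

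Averaged over the gels, Krt7 was higher in tumor organoids by 1.89 ± 0.28 (limma adjusted p = 0.000457), Krt18 by 0.69 ± 0.13 (limma adjusted p = 0.00188) and Krt8 by 0.55 ± 0.16 (limma adjusted p = 0.0168). Krt19 read -0.28 ± 0.27 (limma adjusted p = 0.402). These are 3 of 4 members, beside 50.3% of all genes called and 25.5% called higher. With spike-in scaling Krt8 and Krt18 passed as lower in tumor organoids instead, at -0.59 (limma adjusted p = 0.0105) and -0.45 (limma adjusted p = 0.0351), where the median of all genes was -1.08. Neither passed with quantile normalization, alone or after normexp, or in the authors' values, and Krt8 also missed the threshold with 90th percentile scaling (limma adjusted p = 0.0808), normexp background (limma adjusted p = 0.0515) and slide as a fixed block (limma adjusted p = 0.0557). Averaged Krt19 passed as lower in tumor organoids in 4 of 18 settings: -0.86 with quantile normalization (limma adjusted p = 0.0130) and -0.79 after normexp as well (limma adjusted p = 0.0116), where 49.3% and 47.3% of all genes were called. It read -0.92 in the authors' values (limma adjusted p = 0.00763) and -1.42 with spike-in scaling (limma adjusted p = 0.000133), where 48.7% and 80.1% were called. The averaged Krt7 value passed in all 18 other settings in which it was fitted and without each of the 12 arrays in turn, between 0.75 and 2.48. Averaged over the tissues, Krt18 alone was lower in collagen I, by -0.54 ± 0.13 (limma adjusted p = 0.0248), where 14.7% of all genes were called and 5.39% called lower; it missed the threshold with the mouse as a fixed block (limma adjusted p = 0.0823) and passed with the mouse as a random block (limma adjusted p = 0.0115). The Krt18 value was -0.016 with quantile normalization, -0.0024 in the authors' values and 0.22 with spike-in scaling. In the authors' values and with spike-in scaling the member called was Krt7 instead, as higher in collagen I, at 0.84 (limma adjusted p = 0.0434) and 1.03 (limma adjusted p = 0.00766), where 10.9% and 64.7% of all genes were called. Whether the gel difference itself differs between tumor and normal organoids was tested too, and no member passed, beside 2.63% of all genes called. The difference of differences was -0.84 ± 0.26 for Krt18 (limma adjusted p = 0.0922) and -1.43 ± 0.56 for Krt7 (limma adjusted p = 0.142). That of Krt18 passed with the mouse as a random block (limma adjusted p = 0.0494) and with array weights (limma adjusted p = 0.0351), which called 9.37% and 17.2% of all genes.

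Within a mouse, the collagen I minus Matrigel difference of Krt18 was -0.93, -1.20 and -0.73 in tumor mice A, B and C, and -0.12 and -0.07 in normal mice A and B. That of Krt8 was -0.35, -0.86 and -0.84 in the tumor mice and -0.31 and -0.08 in the normal mice. All 3 tumor mice were thus lower in collagen I for both partners on this scale. For Krt7 the tumor mice gave -0.79, -0.60 and 0.06 and the normal mice 0.60 and 0.91. For Krt19 the tumor mice gave 0.23, -0.73 and -1.48 and the normal mice -1.07 and -0.41. Slides hold several groups, but each within-slide value compares single arrays of different mice. In Matrigel the only slide with both tissues held tumor mouse B and normal mouse D. Tumor B was the highest tumor Matrigel array for each gene, and normal D the lowest normal one for Krt7, Krt8 and Krt19. Tumor minus normal there was 3.66 for Krt7, 1.45 for Krt8, 1.47 for Krt18 and 0.83 for Krt19. In tumor organoids the only slide with both gels held collagen I mouse A and Matrigel mouse C. The gel difference there was -1.20 for Krt7, -0.58 for Krt8, -0.83 for Krt18 and -0.24 for Krt19. In collagen I the one slide with both tissues, tumor mouse C and normal mouse B, gave 1.77, 0.08, 0.38 and -1.14 in that order. With slide as a fixed block the gel difference in tumor organoids missed the threshold for Krt18 (limma adjusted p = 0.0564) and Krt8 (limma adjusted p = 0.103).

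Over the 12 arrays, which share the 4 groups and the scaling, the scaled values of Krt8 and Krt18 correlated at r = 0.94. Krt7 correlated with Krt18 at 0.71 and with Krt8 at 0.69, and Krt19 with Krt8 at 0.43, with Krt18 at 0.22 and with Krt7 at -0.18. With quantile normalization these values were 0.38 for Krt8 with Krt18, -0.35 for Krt7 with Krt18, -0.36 for Krt7 with Krt8, 0.69 for Krt19 with Krt8, 0.19 for Krt19 with Krt18 and -0.70 for Krt19 with Krt7, so the sign for Krt7 with Krt8 and Krt18 turned. On the 75th percentile scale, among 13705 other genes with a symbol, those most alike in pattern to Krt7 were Fhl2 (r = 0.98), which encodes a LIM domain protein, Hspb1 (0.98), a small heat shock protein, and Nectin2 (0.98), a cell adhesion molecule. Among those most like Krt18 were the ribosomal protein genes Rpl9 (0.99) and Rpl19 (0.99). Those most like Krt8 were Nelfe (0.98), Cox8a (0.98) and Tmem51 (0.98), and those most like Krt19 were Pimreg (0.95), the mitotic cyclin gene Ccnb2 (0.94) and the replication protein gene Rpa2 (0.94).

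The other keratins did not share one pattern with the luminal ones. Krt23, a type I keratin also of simple epithelia, was higher in tumor than in normal organoids in Matrigel by 1.90 ± 0.33 (limma adjusted p = 0.00113) and in collagen I by 1.92 ± 0.33 (limma adjusted p = 0.00458); the Matrigel difference was 0.25 and did not pass with spike-in scaling. Krt80 read 0.52 ± 0.96 and 1.00 ± 0.96, and Krt20 was not tested, as it did not pass the filter on dim probes. Of the 4 basal keratins 0 passed between the tissues in either gel, beside 51.6% of all genes called in Matrigel and 8.64% in collagen I. In Matrigel the differences were -0.72 for Krt5, 1.08 for Krt14, -0.12 for Krt15 and 2.12 for Krt17, with standard errors of 0.58 to 0.88. Krt15 fell in collagen I in tumor organoids, by -2.57 ± 0.58 (limma adjusted p = 0.00996), and was lower under all 8 scalings. In normal organoids the Krt15 mean also fell, from 1.39 in Matrigel to -0.09 in collagen I, without passing. Normal Matrigel varied for these genes: Krt14 ran from 4.45 to 7.43 and Krt17 from 1.00 to 4.44.

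Of the 8 stress and suprabasal keratins, which appear in wounded, stratified or squamous epithelia, 1 was higher and 2 were lower in tumor than in normal Matrigel organoids. Over all genes 51.6% were called there. Krt16, a stress keratin of wounds, was higher by 3.58 ± 1.09 (limma adjusted p = 0.0185) in Matrigel and by 5.53 ± 1.09 (limma adjusted p = 0.0103) in collagen I, without passing in Matrigel under spike-in scaling (1.94). Krt10, an early suprabasal keratin, was lower by -1.22 ± 0.25 (limma adjusted p = 0.00234) in Matrigel, and higher in collagen I than in Matrigel in tumor organoids by 1.45 ± 0.25 (limma adjusted p = 0.00344). Both Krt10 differences kept their direction and passed under all 8 scalings. Krt4, a keratin of the stratified lining of mouth and oesophagus, was not well above background on any tumor Matrigel array and was at least 3.83-fold lower there than in normal Matrigel (limma adjusted p = 0.000329); with normexp background it read 0.58 and did not pass. Krt75 was higher in collagen I in tumor organoids by 1.96 ± 0.65 (limma adjusted p = 0.0462), and the call was lost with quantile normalization (1.64), median scaling, both normexp settings and the authors' values. In normal organoids the Krt75 mean also rose, from -4.26 in Matrigel to -1.66 in collagen I, without passing. Krt6a, Krt6b, Krt1 and Krt13 did not pass in either comparison, at 1.64, 1.69, 0.36 and 1.04 between the tissues in Matrigel and 1.32, 1.54, 1.89 and 0.41 between the gels in tumor organoids. The median of this list was 0.81 between the tissues in Matrigel, where the median of all genes was 0.08.

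**Figure D5:**
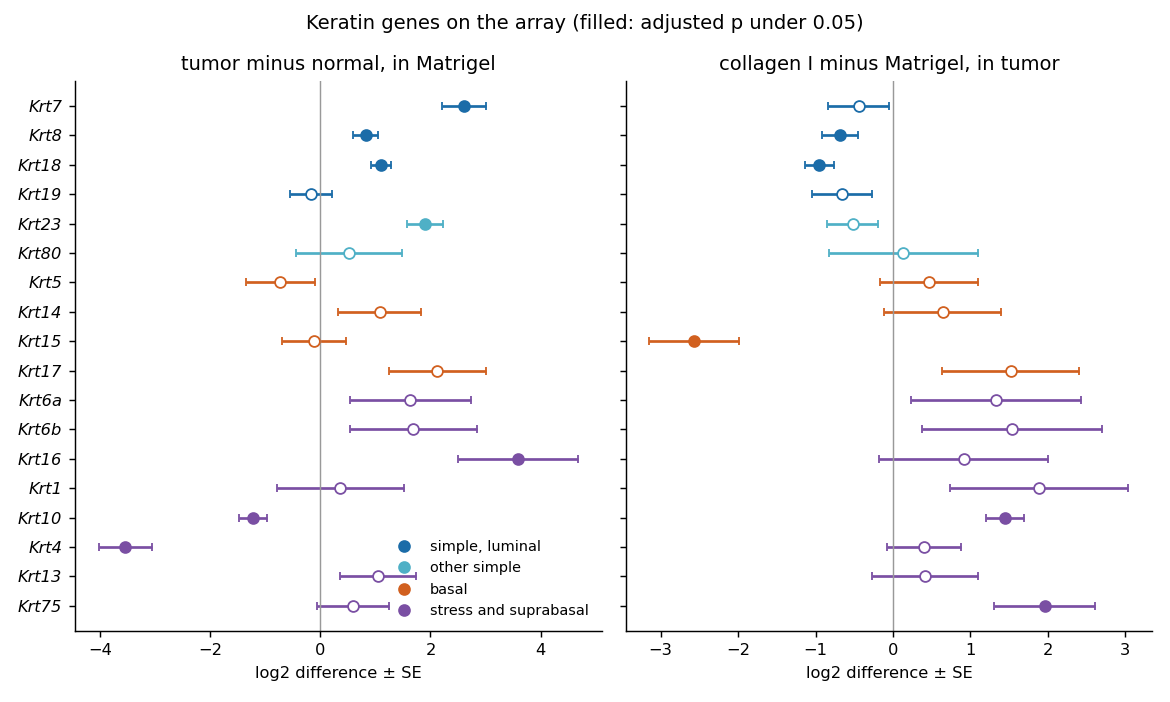
Log2 differences ± SE (x axis) of 18 keratin genes (y axis), tumor minus normal in Matrigel on the left and collagen I minus Matrigel in tumor organoids on the right, on the 75th percentile scale; colours mark the keratin classes and filled points a limma adjusted p under 0.05. On the left Krt7, Krt8, Krt18, Krt23 and Krt16 are filled above 0 and Krt10 and Krt4 below, and on the right only Krt10 and Krt75 are filled above 0.

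Genes of the structures that hold keratin filaments were measured in the same fit. Of 20 anchor and partner genes, the tumor organoids in Matrigel had 8 at a higher level than the normal ones and 1 at a lower level. Over all genes 51.6% were called there and 25.7% called higher. The median difference of the 20 genes was 0.69. Those with the largest differences that passed were Evpl, the cornified envelope plakin envoplakin, at 2.00 ± 0.50 (limma adjusted p = 0.00726), Eppk1, epiplakin, at 1.47 ± 0.26 (limma adjusted p = 0.00127), and the desmosomal plakophilin Pkp1 at 1.42 ± 0.50 (limma adjusted p = 0.0339). Plec, the plectin that links keratin to hemidesmosomes, was higher by 1.40 ± 0.17 (limma adjusted p = 0.000239). With quantile normalization 3 were higher and 2 lower, the median being 0.29, and Pkp1 no longer passed, beside 48.8% of all genes called. With spike-in scaling 0 were higher and 11 lower, where 80.9% of all 18274 genes were called and only 228 called higher. The Plec difference was 0.54 in the authors' values and -0.43 with spike-in scaling, and passed in neither. In tumor organoids 1 anchor gene was lower in collagen I, Plec at -1.22 ± 0.15 (limma adjusted p = 0.00153), and 1 was higher, Dst at 0.74 ± 0.24 (limma adjusted p = 0.0394). Over all genes 27.8% were called between these gels. Dst encodes dystonin, another plakin, and its call was lost with quantile normalization. Of 7 other intermediate filament genes in Matrigel, Lmna, the nuclear lamin A/C, was higher in tumor organoids at 1.34 ± 0.30 (limma adjusted p = 0.00382), but not with quantile normalization (0.36). Vim, vimentin of mesenchymal cells, was lower at -2.04 ± 0.55 (limma adjusted p = 0.0101) and Des, the muscle filament desmin, at -2.23 ± 0.51 (limma adjusted p = 0.00462); with normexp background Des read 0.64 and did not pass.

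Of 20 luminal transcription factor and surface genes, 9 had a higher and 2 a lower level in tumor than in normal Matrigel organoids. Over all genes 51.6% were called there and 25.7% called higher. The median difference of the 20 genes was 0.35. The largest differences were those of Foxa1, a factor of hormone-sensing luminal cells, at -3.35 ± 0.75 (limma adjusted p = 0.00402), and Cldn4, a tight junction claudin, at 2.99 ± 0.54 (limma adjusted p = 0.00135). Prom1, a luminal surface protein, was higher by 1.97 ± 0.19 (limma adjusted p = 5.64e-05) and Ovol1, an epithelial zinc finger factor, by 1.58 ± 0.61 (limma adjusted p = 0.0498). With quantile normalization 8 of the luminal genes were higher and 5 lower, beside 48.8% of all genes called. With spike-in scaling 1 was higher and 11 lower, where 80.9% of all 18274 genes were called and only 228 called higher. Foxa1 did not pass with normexp background (-1.01). In tumor organoids 4 were lower in collagen I, among them Elf3, an epithelial ETS factor, at -1.40 ± 0.21 (limma adjusted p = 0.00211), Tfap2c, an AP-2 factor of luminal cells, at -1.16 ± 0.19 (limma adjusted p = 0.00283), and Cldn3 at -0.87 ± 0.24 (limma adjusted p = 0.0233), while Ehf, another ETS factor, was higher at 0.97 ± 0.23 (limma adjusted p = 0.0134). Of 7 hormone-sensing luminal genes tested, 1 was higher and 3 were lower between tissues in Matrigel, and between collagen I and Matrigel in tumor organoids 0 passed. Over all genes 27.8% were called between these gels and 12.1% called lower. Of 9 ubiquitous bright genes, 5 were higher between the tissues in Matrigel and 5 lower between the gels in tumor organoids, and the median differences were 0.57 and -0.62. With quantile normalization 0 passed in either comparison, and the medians were -0.24 and 0.11.

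On the 75th percentile scale, markers of most other cell types moved with the tissue comparison, while the leukocyte sums overlapped in Matrigel. In bulk RNA fewer cells of a type and less RNA per cell cannot be told apart. Over all genes 51.6% were called between the tissues in Matrigel and 25.7% called higher. Of 12 myoepithelial genes, 7 were lower and 1 higher in tumor than in normal Matrigel organoids. Their summed level, in multiples of the array's 75th percentile, ran from 118 to 148 in normal Matrigel and from 65.4 to 72.0 in tumor Matrigel. Of 10 fibroblast genes 10 were lower, with summed levels of 19.6 to 128 against 4.37 to 5.67, and of 10 endothelial genes 9 were lower, with 11.2 to 16.1 against 1.03 to 1.35. Of 11 leukocyte genes 1 was higher and 1 lower, with 2.44 to 28.6 against 4.60 to 7.72. Of 3 adipocyte genes tested 2 were lower, with 15.9 to 50.2 against 0.80 to 1.16. A gene was tested if well above background on all arrays of 1 group, and some genes of each list reached this in normal organoids only. For these the filter favoured a call as lower. Some were not well above background on any tumor Matrigel array, so how much lower they were is not known. Well above background on all 12 arrays were 10 of 12 myoepithelial and 1 of 3 adipocyte genes. In collagen I the myoepithelial sums ran from 134 to 162 in normal and 67.4 to 79.6 in tumor organoids, the fibroblast sums from 31.4 to 75.5 and 6.001 to 10.9, the endothelial sums from 7.42 to 14.0 and 0.54 to 0.70, and the leukocyte sums from 40.8 to 62.9 and 3.62 to 8.01. The adipocyte count in Matrigel was 1 lower of 3 with quantile normalization, median scaling, both normexp settings and the authors' values, and 3 with spike-in scaling. The other counts of these lists are given on the 75th percentile scale only. The part of these cell types in the tissue differences of the 4 keratins was not tested. Between the gels in tumor organoids Krt8 and Krt18 were lower in collagen I on the 75th percentile scale, but not under all scalings. In that comparison 27.8% of all genes were called and 12.1% called lower. There 1 of 12 myoepithelial, 1 of 10 fibroblast and 0 of 10 endothelial genes were higher, and 0, 0 and 2 were lower. Of 11 leukocyte genes 0 were higher and 1 lower, and of 3 adipocyte genes 0 passed.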

How the data were processed

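The intensities deposited for each array are Agilent's processed signals, from Feature Extraction 9.5 per the file headers (9.1 per the submitters' processing notes). The authors' deposited log2 values served as an alternative. They correlated with the log2 processed signals at r of 0.994 or higher, and their column medians lay between 5.92 and 5.98. How they were normalized was not established, but identical values recur across arrays. Krt18 read 18.0353 in both normal collagen I A and tumor Matrigel A, and Krt8 17.832 in both normal Matrigel A and tumor collagen I A. Quantile normalization gives such repeats, so these values and the quantile setting may share one normalization. The column for normal Matrigel B averages its arrays of both batches, per the labels. The scaled value used is the log2 processed signal less the array's 75th percentile, without control or flagged spots and with spots of a probe averaged. A filter kept 26606 of 41174 probes, those well above background on all arrays of 1 or more groups, and the probe of highest mean stood for its gene.

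A limma model (limma 3.58.1, R 4.3.3, data.table version 1.17.8) had a term per group on the 12 arrays of batch 2. Benjamini-Hochberg adjustment ran over 18274 genes, with 0.05 as threshold; the model was tested on simulated data. Mice are separate animals. Gels of one tissue are paired by mouse, per the labels; deviations of paired arrays correlated at 0.24 (A) and -0.24 (B) in normal and at -0.06 (A), 0.32 (B) and 0.42 (C) in tumor mice. The members and the 14 gene lists were chosen with earlier results of these data known. The text names the members, all tested keratins of the lists, up to 4 passing genes of largest difference per other list in the comparison described, and the 3 genes that correlate best with each member, of which 1 is not reported here; for lists of other cell types only counts and sums are given. Alternatives covered scaling, background, filters, probe choice, batch 1, mouse and slide blocks, variance models and single arrays left out. Precision is limited by the number of arrays. Plots used matplotlib 3.10.9.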

Additional observations from a re-analysis of the deposited data

How the results depend on the processing

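Of the 1093 values recomputed, 748 of 872 single differences kept their direction and side of the threshold. For the counts only size was compared, and 184 of 221 were the same or close, 2 beside 3 being taken as close. Which members were called, and in which direction, did not enter that comparison. In single differences 66 turned sign, 42 lost and 16 gained a call. The scalings moved the median difference of all genes between tissues in Matrigel from 0.08 to 0.52 (median), -0.26 (90th percentile), 0.46 (normexp) and -1.56 (spike-in), and between the gels in tumor organoids from -0.04 to -0.37, 0.16, -0.32 and 1.22. In the following the comparisons are named by tissue difference or gel difference, and the cause of the changes was not tested. With quantile normalization the tissue difference of Krt8 was -0.22 in Matrigel, -0.12 in collagen I and -0.17 averaged, and its gel difference 0.034 in normal, 0.13 in tumor and 0.083 averaged, with 0.10 for the difference of differences. Krt18 read -0.16 (tissue, collagen I), -0.068 (tissue averaged) and 0.074 (gel, normal), Krt7 0.29 (gel, tumor) and Krt19 0.26 (difference of differences); 0 members were called between the gels in tumor organoids and 0 with gels averaged over tissues. With normexp and quantile normalization these were, for Krt8, -0.20, -0.084, -0.14, 0.045, 0.16, 0.10 and 0.11, and for Krt18 -0.17, -0.10 and 0.066, with -0.016 for its tissue difference in Matrigel; Krt7 read 0.30 and Krt19 0.21, and 0 and 0 members were called. In the authors' values Krt8 read -0.030, -0.14, -0.085, 0.17, 0.058 and 0.11 (without the difference of differences), Krt18 -0.15 (tissue, collagen I) and 0.15 (gel, normal), Krt7 0.49 and Krt19 0.23, with 0 called between the gels in tumor organoids. With spike-in scaling Krt8 read -0.82, -0.35, -0.59, 0.11, 0.58, 0.35 and 0.47 in the first order, and Krt18 -0.54, -0.37, -0.45, 0.14, 0.31, 0.22 and 0.18. Krt19 then read 0.61 (gel, tumor), 0.21 (gel averaged) and 0.79 (difference of differences), and Krt7 0.82 (gel, tumor), with 1 called between tissues in collagen I (Krt19) and 0 between the gels in tumor organoids. Scaled at the median, Krt19 read 0.27 (tissue, Matrigel) and 0.020 (tissue averaged), and 2 members were called with gels averaged over tissues. Normexp gave 0.016 for the Krt19 difference of differences, 0 called between the gels in tumor organoids and 0 averaged. Slide as a fixed block gave gel differences in normal organoids of 0.10 (Krt8), 0.048 (Krt18) and 0.059 (Krt19), 0.27 for Krt19 between tissues in Matrigel, 0 called between the gels in tumor organoids and 0 averaged. With the mouse as a fixed block (the pairing by animal) the Krt19 difference of differences was 0.082, with 1 member called between the gels in tumor organoids and 0 averaged; as a random block 1 was called for the difference of differences. Over all genes the fixed block called 0 between the gels in normal organoids, 0 for the difference of differences and 868 averaged, and the random block 71, 1712 and 3910, against 8, 481 and 2686 (without adjustment 1659 and 3787 genes had p under 0.05 for the 2 counts of 0). The mouse blocks ended no other member's call between the gels. Tissue differences could not be fitted with the mouse as a fixed block, and the random block ended none of their calls. Without a filter, 1 was called between the gels in tumor organoids and 0 averaged; array weights gave 1 there, 1 in normal organoids (Krt7, where 1186 genes were called against 8) and 1 for the difference of differences (Krt18, where 3146 were called against 481). The 90th percentile, the mean of a gene's probes and only the groups compared each gave 1 between the gels in tumor organoids. Leaving out each array gave 1 to 2 called between the gels in tumor organoids, where Krt8 passed in 3 of 12 (adjusted p from 0.0323 to 0.170) and Krt18 in 12, and 0 to 1 averaged, 0 to 1 between tissues in collagen I and 2 to 3 in Matrigel. The averaged gel call of Krt18 was lost without normal Matrigel A, normal collagen I B or C or tumor collagen I A, and the Krt8 call between tissues in Matrigel without normal Matrigel D (0.72). Without single arrays Krt19 ran from -0.52 to 0.19 (tissue, Matrigel) and -0.58 to 0.14 (difference of differences), and Krt8 from -0.24 to 0.015 (gel, normal).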
